A study of Mus musculus with 13 samples.

Results

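Bile duct epithelium transcripts were followed in bulk RNA sequencing libraries of liver endothelial cells. The genes are Krt7, Krt8, Krt18, Krt19, Epcam, Sox9, Spp1 and Cftr, taken by gene symbol, and all 8 were found among the 24421 symbols of the count table. Wild-type mice were either conventionally raised with a normal microbiota (CONV-R, n = 7 libraries) or germ-free, with no live microbes (GF, n = 6 libraries). The strain, the sex, the age, the isolation of the cells and the number of animals behind a library: each is not given in the sources used here. The p-values therefore rest only on library-to-library spread, which may be technical. CONV-R libraries held 7590320 to 32869515 counts each, and GF libraries 23407168 to 35478115.

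Cholangiocytes are the epithelial cells that line the bile ducts. They carry a simple-epithelium keratin skeleton, in which a type II keratin (Krt7 or Krt8) pairs with a type I keratin (Krt18 or Krt19), the surface adhesion protein Epcam and the ductal transcription factor Sox9. They secrete osteopontin, the product of Spp1, and pass chloride into bile through the channel encoded by Cftr, which drives bicarbonate secretion. Bile ducts run beside the portal vein branches, and endothelial cells are not known as a main source of these transcripts. Hepatocytes express Krt8 and Krt18 as well, and activated macrophages can express Spp1. In bulk libraries, more cells of a type and more RNA per cell cannot be told apart.

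In the mouse build GRCm38 (GENCODE M21), the members are protein-coding genes on 5 chromosomes, and counts are summed per gene. Krt7 spans chr15:101411043-101430313, Krt8 chr15:101996698-102004482 and Krt18 chr15:102028180-102032027, so 3 of the keratins lie on 1 chromosome, with Krt8 and Krt18 close together and Krt7 farther off. Krt19 spans chr11:100140810-100148665 and Sox9 chr11:112782224-112787760. Epcam spans chr17:87635979-87651129, Spp1 chr5:104435118-104441050 and Cftr chr6:18170687-18322768.

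RefSeq start regions (GRCm38.p6) were available for 6 of the 8 members, Krt19 and Sox9 being without an entry. The bases just upstream of the first consensus coding (CCDS) transcript are shown for 3 members that were higher in GF and for Spp1, the most abundant member, because they differ in make-up although the genes share a tissue. Capitals mark matches on either strand to the GC box GGGCGG, the E-box CAGGTG, the TATA motif TATAAA or the HNF1 half-site GTTAAT, with overlapping matches counted. The regions are chr15:101412153-101412401 for Krt7, chr17:87635729-87635978 for Epcam, chr6:18170437-18170686 for Cftr and chr5:104434861-104435110 for Spp1, all on the plus strand. The Krt7 stretch lies inside the gene span given above, because GENCODE transcripts without the CCDS tag start further upstream.
Krt7: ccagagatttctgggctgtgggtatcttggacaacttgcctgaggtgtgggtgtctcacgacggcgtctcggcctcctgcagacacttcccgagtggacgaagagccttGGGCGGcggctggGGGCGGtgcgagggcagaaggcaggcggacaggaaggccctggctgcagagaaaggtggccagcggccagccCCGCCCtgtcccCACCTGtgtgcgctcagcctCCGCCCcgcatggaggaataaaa
Epcam: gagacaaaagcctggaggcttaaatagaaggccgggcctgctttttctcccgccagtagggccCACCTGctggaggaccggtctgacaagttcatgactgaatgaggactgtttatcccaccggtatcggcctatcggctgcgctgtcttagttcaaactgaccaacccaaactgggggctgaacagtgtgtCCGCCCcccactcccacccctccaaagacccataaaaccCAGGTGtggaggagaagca
Cftr: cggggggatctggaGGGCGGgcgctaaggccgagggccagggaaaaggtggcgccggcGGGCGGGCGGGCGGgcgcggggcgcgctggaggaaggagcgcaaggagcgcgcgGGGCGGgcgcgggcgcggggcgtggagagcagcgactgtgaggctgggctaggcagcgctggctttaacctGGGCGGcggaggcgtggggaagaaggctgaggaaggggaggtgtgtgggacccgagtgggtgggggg
Spp1: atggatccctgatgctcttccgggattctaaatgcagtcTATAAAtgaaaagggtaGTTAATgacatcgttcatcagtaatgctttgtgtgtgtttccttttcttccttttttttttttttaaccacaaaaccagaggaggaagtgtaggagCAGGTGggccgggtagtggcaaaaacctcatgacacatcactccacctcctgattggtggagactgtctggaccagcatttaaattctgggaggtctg

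The G and C share of these stretches was 65.9% for Krt7, 56.4% for Epcam, 76.4% for Cftr and 43.6% for Spp1, beside a median of 52.0% over the 250-base windows of 27025 genes. Those windows are the first 250 bases of each RefSeq entry, which for some members reach past the CCDS start. In them the E-box was found in 5 of the 6 members with an entry (Krt7, Krt8, Krt18, Epcam and Spp1) and in 17.1% of all genes; for Krt8 the match lies outside the 110 bases upstream of its CCDS start. The GC box was found in Cftr, Krt7 and Epcam and in 32.9% of all genes. Spp1 held the TATA motif (13.0% of all genes) and the HNF1 half-site (6.52%). None of the 6 windows held the forkhead motif GTAAACA (3.09% of all genes), the TEAD motif GGAATG (12.6%) or the AP-1 motif TGANTCA (6.87%), each searched on both strands.

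Transcripts of the bile duct epithelium were higher in GF than in CONV-R libraries. All 8 members had the higher mean in GF, and 5 of them passed the test across all genes: Krt7, Krt8, Krt19, Epcam and Cftr (edgeR, quasi-likelihood, with a Benjamini-Hochberg adjusted p under 0.05). Krt18, Sox9 and Spp1 did not pass, and 0 of the 8 were lower. Of all 13915 tested genes 11.4% were called higher and 12.7% lower. The median log2 fold change (GF over CONV-R) was 1.18 over the members and -0.01 over all tested genes. Levels are in CPM, counts relative to library size after TMM, edgeR's correction for composition.

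Krt19, the type I keratin typical of ducts, had the largest difference. In CONV-R it stood at 2.88 CPM at the lowest, 6.31 at the median and 35.8 at the highest, and in GF at 24.6, 39.7 and 52.1. A single CONV-R library, number 2, reached the GF range, and 5 of the 6 GF libraries exceeded every CONV-R library. The mean went from 11.9 ± 11.5 to 39.1 ± 8.93 CPM (SD), a 3.28-fold rise (log2 fold change 1.71 ± 0.48 SE, adjusted p = 0.0213).

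Krt7, the type II keratin of ducts, was much less abundant, with between 16 and 106 counts in a CONV-R library and between 93 and 159 in a GF one. It held 0.999, 1.32 and 3.47 CPM (lowest, median, highest) across CONV-R and 2.87, 4.36 and 5.52 in GF. Library CONV-R 2 again overlapped GF, and the other 6 CONV-R libraries, at up to 2.48 CPM, lay below all of GF. Krt7 rose 2.40-fold (log2 fold change 1.26 ± 0.30, adjusted p = 0.0101).

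Krt8 and Krt18, the keratin pair that hepatocytes also make, differed from each other. Krt8 stood at 10.6, 15.5 and 32.4 CPM across CONV-R and at 28.4, 32.2 and 48.6 in GF, and rose 2.04-fold (log2 fold change 1.03 ± 0.23, adjusted p = 0.0071). Krt18 stood at 7.44, 13.3 and 27.9 CPM across CONV-R and at 16.7, 20.6 and 29.2 in GF, with a log2 fold change of 0.50 ± 0.25 that did not pass (adjusted p = 0.154). For Krt18, 3 CONV-R libraries reached the GF range, against 1 for Krt8.

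The ratio of Krt8 to Krt18 counts within a library needs no scaling between libraries, and was examined after the levels had been seen. It ran from 0.892 to 1.43 across CONV-R and from 1.39 to 2.02 in GF, where 5 of 6 libraries exceeded every CONV-R library. On the log2 scale the mean ratio was 0.20 ± 0.23 across CONV-R and 0.71 ± 0.19 in GF, a difference of 0.51 (exact two-sided permutation test over 1716 arrangements, p = 0.00233, adjusted over 2 ratios p = 0.00466). Hepatocyte markers were highest in CONV-R 1 and 7, whose ratios were 1.08 and 0.892. Without these 2 libraries the difference was 0.42 (exact permutation p = 0.00866), against CONV-R 1 to 4 alone it was 0.39 (exact permutation p = 0.019) and against CONV-R 5 to 7 alone it was 0.67 (exact permutation p = 0.0238, the smallest that design allows). The ratio of the ductal pair, Krt19 to Krt7, ran from 2.18 to 11.4 across CONV-R and from 7.75 to 14.7 in GF. Its log2 difference of 0.80 did not pass (exact permutation p = 0.0629). It was 0.98 without CONV-R 1 (p = 0.0173 by exact permutation) and 0.95 without CONV-R 2 (p = 0.0368 by exact permutation). These p-values are unadjusted and belong to 2 of the 13 possible omissions, so they are not counted as passing.

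Epcam, the epithelial adhesion molecule, had the tightest GF values, with a coefficient of variation of 14.2%. It held 1.87, 3.29 and 11.0 CPM (lowest, median, highest) across CONV-R and 9.51, 10.3 and 13.1 in GF. CONV-R 2 lay above 4 of the 6 GF libraries, and the other CONV-R libraries, at up to 5.48 CPM, lay below all of them. Epcam rose 2.32-fold (log2 fold change 1.22 ± 0.32, adjusted p = 0.016).

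Sox9, the ductal transcription factor, overlapped widely between the groups. It stood at 0.562, 2.21 and 3.55 CPM across CONV-R and at 1.59, 3.25 and 6.83 in GF, and 5 of the 7 CONV-R libraries lay within the GF range. The log2 fold change was 0.82 ± 0.44 and did not pass (adjusted p = 0.179). Its counts were low, 9 to 105 in a CONV-R library.

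Spp1, the osteopontin gene, made up 35.6% to 82.0% of the members' summed CPM across CONV-R and 43.8% to 70.6% in GF. It stood at 29.7, 60.4 and 194 CPM across CONV-R and at 85.9, 230.1 and 297 in GF. CONV-R 2 (192.9 CPM) and CONV-R 3 (194.2 CPM) were above GF 8 (125) and GF 9 (85.9), and CONV-R 4 (98.6 CPM) was above GF 9. The log2 fold change was 1.15 ± 0.47 and did not pass (adjusted p = 0.0874). It did pass without CONV-R 2 (1.41, adjusted p = 0.0416) or CONV-R 3 (1.43, adjusted p = 0.0372).

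Cftr, the chloride channel gene, was the least abundant member. A CONV-R library held between 5 and 43 counts of it and a GF library between 22 and 106. CONV-R 1, 1 of 2 libraries with 5 counts, has a 95% Poisson interval from 0.0823 to 0.592 CPM (counting error only). Levels were 0.254, 0.70 and 1.41 CPM across CONV-R and 0.972, 2.11 and 3.63 in GF, where 5 of 6 libraries exceeded every CONV-R library; the GF library below that, number 9, was exceeded by 3 CONV-R libraries. Cftr rose 2.65-fold (log2 fold change 1.40 ± 0.37, adjusted p = 0.0153). With limma-voom the adjusted p was 0.0532.

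**Figure D1:**
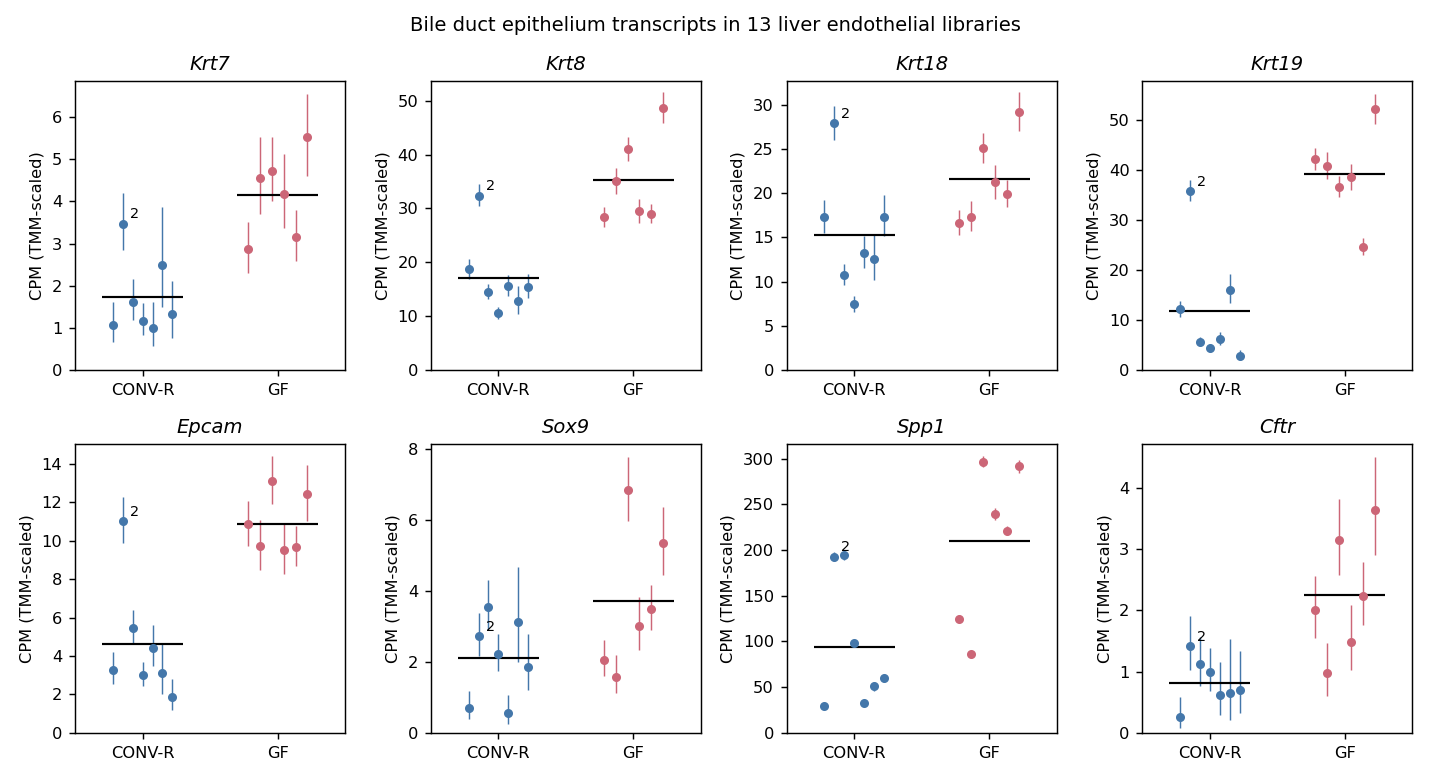
TMM-scaled CPM (vertical axis, from 0) of each member in the 7 CONV-R and 6 GF libraries, with 1 point per library, 95% Poisson intervals of counting error and a line at the group mean. The point marked 2 is CONV-R 2, which lies inside the GF range for all 8 members.

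Compared per length, so that genes can be set side by side, the order in GF was Spp1 (139 ± 57.6 CPM per kilobase of the longest consensus coding transcript), Krt19 (24.8 ± 5.66), Krt8 (18.0 ± 4.16), Krt18 (15.02 ± 3.33), Epcam (5.33 ± 0.757), Krt7 (1.02 ± 0.245), Sox9 (0.90 ± 0.486) and Cftr (0.356 ± 0.159). Krt8 and Krt18, and Krt7 and Sox9, differed by less than 1 SD there. The place of Krt7 depends on its transcript length of 4094 bases, against 1437 to 1958 for the other keratins, and a shorter transcript would raise it. In CONV-R, Krt18 (10.6 ± 4.59), Krt8 (8.77 ± 3.66) and Krt19 (7.55 ± 7.32) lay within 1 SD of each other, below Spp1 (62.5 ± 47.5). The endothelial adhesion gene Pecam1 stood at 334 ± 59.8 CPM per kilobase across CONV-R and 445 ± 25.4 in GF. Every member's mean lay below that of Pecam1 in both groups.

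No member separated the groups completely. For 0 of the 8 members did all 6 GF libraries lie above every CONV-R library, a pattern that 5.94% of all tested genes showed. CONV-R 2 was the highest CONV-R library for 6 of the 8 members, whereas it was the highest for 9.26% of all tested genes. Set against the other 6 CONV-R libraries, all 6 GF libraries were higher for Krt7, Krt8, Krt19 and Epcam, which is 4 of 8 members, beside 7.11% of all tested genes. CONV-R 2 was set aside because of the members' own values, so 4 of 8 and 7.11% are not a like comparison. The same limit applies to the shares given below for fits without CONV-R 2. CONV-R 2 did not stand apart in endothelial markers, with a summed level of 10240 CPM for 8 general endothelial genes, inside the CONV-R range of 6107 to 10680.

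The choice of CONV-R libraries changed how many members passed. Leaving out CONV-R 2 gave 7 of 8 members higher (all but Sox9; 11.2% of all tested genes), with log2 fold changes of 2.33 for Krt19, 1.59 for Epcam and 0.71 for Krt18. Library names carry a code number whose meaning is not stated, 10 for CONV-R 1 to 4, 9 for CONV-R 5 to 7 and 6 for every GF library, so code and group cannot be told apart. Against code number 10 alone 1 member, Krt7, passed (1.17, adjusted p = 0.0495; 6.89% of all tested genes were called higher). Krt8 (0.89, adjusted p = 0.0687), Epcam (0.93, adjusted p = 0.0879), Krt19 (1.43, adjusted p = 0.0981) and Cftr (1.23, adjusted p = 0.10) did not. With CONV-R 2 left out of that fit 4 members passed, Krt7 (1.68), Krt8 (1.27), Krt19 (2.41) and Epcam (1.46), beside 5.45% of all tested genes called higher. Against code number 9 alone 7 of 8 passed (16.2% of all tested genes), with Krt19 at 2.30, Spp1 at 2.12, Epcam at 1.76 and Cftr at 1.75. The log2 fold changes of Krt18 were 0.45 and 0.57 and those of Sox9 0.69 and 1.10 against code numbers 10 and 9.

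**Figure D2:**
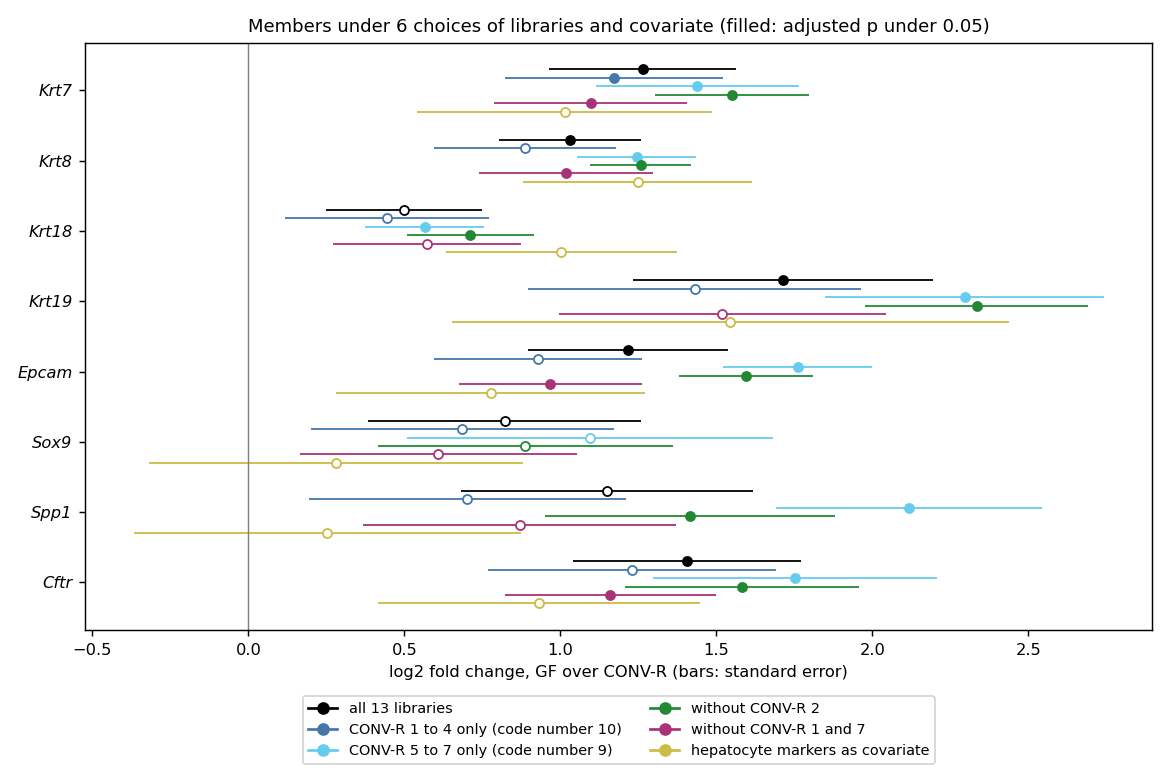
Log2 fold change of each member, GF over CONV-R (horizontal axis, bars are standard errors), for 6 choices of libraries and covariate, filled where the adjusted p was under 0.05. All values lie above 0, and open symbols gather where only CONV-R 1 to 4 were used or where hepatocyte markers were a covariate.

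Markers of other liver cells moved in the same libraries. The 20 hepatocyte genes summed to 1372 to 8956 CPM across CONV-R and 844 to 1308 in GF. Of them 18 were lower in GF, beside 12.7% of all tested genes, and 0 were higher. The acute-phase protein gene Hp had a log2 fold change of -3.52 ± 0.63 (adjusted p = 0.00239). With the mean log2 level of these genes as a covariate 0 of 8 members passed in edgeR (2 at an unadjusted p under 0.05, both higher), and 1.96% of all tested genes were called higher. The hepatocyte sums of CONV-R and GF do not overlap, so covariate and group can hardly be told apart in that fit. A call lost there cannot be assigned to either. The log2 fold changes in that fit were 1.55 for Krt19 (adjusted p = 0.399), 1.25 for Krt8 (adjusted p = 0.0805), 1.01 for Krt7 (adjusted p = 0.271) and 1.003 for Krt18 (adjusted p = 0.158). Those of Cftr (0.93, adjusted p = 0.37), Epcam (0.78, adjusted p = 0.453), Sox9 (0.28, adjusted p = 0.865) and Spp1 (0.25, adjusted p = 0.887) were smaller. The values of Krt8 and Krt18 were above those without the covariate, and those of the other 6 members below. Without CONV-R 1 and 7, which held the highest hepatocyte sums of 8956 and 8220 CPM, 4 members passed (10.2% of all tested genes were called higher) and Krt19 did not (1.52, adjusted p = 0.0627).

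Other epithelia share some members. Pancreatic enzyme genes, whose tissue also has Krt19-positive ducts, summed to 4278 CPM in CONV-R 6 (Cela1, Ctrb1, Prss2 and Cpa1), against 11.1 to 526 in the other CONV-R libraries and 10.8 to 525 in GF. CONV-R 6 held the second-highest CONV-R levels of Krt7 (2.48 CPM) and Krt19 (16.1 CPM). The 5 calls were kept without it, but for Krt7 and Krt19 that omission only removes a high CONV-R value. In GF the enzyme sum was highest in GF 13 (525 CPM), the highest library for Krt7, Krt8, Krt18, Krt19 and Cftr. GF 10 (101.5 CPM) was the highest library for Epcam, Sox9 and Spp1. A pancreatic part in the members' difference was not tested. Of 9 mesothelium genes found, 2 were tested, and 1, Gpm6a, was higher (log2 fold change 0.58 ± 0.18, adjusted p = 0.0339), a gene not confined to mesothelium. The list summed to 10.2 to 24.0 CPM across CONV-R and 17.5 to 57.2 in GF, with GF 11 highest. The list's median sum was 14.0 CPM across CONV-R and 22.5 in GF. The defining gene Msln stood at 0.12 to 0.624 CPM across CONV-R and 0.178 to 3.59 in GF. GF 11 was not the highest library for any member, but a rank in 1 library does not test a mesothelial part.

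Of the Kupffer cell list, liver macrophages, 0 of 10 genes were called higher or lower in edgeR. At an unadjusted p under 0.05, 7 of them were lower, and DESeq2 called 2 lower. The count called lower was 7 without CONV-R 4, 3 without CONV-R 3, 2 without CONV-R 2 and 10 against code number 9 alone. The list summed to 2355 to 7491 CPM across CONV-R and 2420 to 3828 in GF. Of the 7 lipid-associated macrophage genes, 1 was higher, Fabp5 (log2 fold change 0.91 ± 0.10), which endothelial cells express too, while Trem2 stood at -0.70 ± 0.39 (adjusted p = 0.20). Of the leukocyte lists, 9 of 9 tested neutrophil and monocyte genes and 7 of 8 B cell genes were lower in GF, beside 12.7% of all tested genes. The neutrophil and monocyte genes summed to 740 to 2263 CPM in CONV-R 5 to 7, 216 to 401 in CONV-R 1 to 4 and 89.45 to 184 in GF. Their median log2 fold change of -2.72 became -1.36 against code number 10 alone, where 5 were called lower. With the hepatocyte covariate 0 genes of either list were called lower in edgeR. The B cell genes summed to 1593 CPM in CONV-R 1 and to 61.4 to 84.0 in the other CONV-R libraries. Their median log2 fold change of -3.09 became -1.13 without CONV-R 1, and the count fell to 3 without GF 9 and 4 without GF 10, 11, 12 or 13. Of 8 T and NK cell genes 0 were called in edgeR (2 lower at an unadjusted p under 0.05) or in DESeq2. Endothelial genes were themselves higher, 3 of 8 general and 6 of 10 sinusoidal ones with 0 lower, with medians of 0.33 and 0.37 on the log2 scale. These counts fell to 1 general gene without GF 9, and to 3 sinusoidal ones without CONV-R 2, 5 or 7 or any GF library. Against code number 10 alone 0 general genes (3 at an unadjusted p under 0.05) and 1 sinusoidal gene were higher in edgeR. With the hepatocyte covariate 0 general and 0 sinusoidal genes were (0 and 1 at an unadjusted p under 0.05). The part of these other cells in the members' difference was not tested beyond the fits given here.

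**Figure D3:**
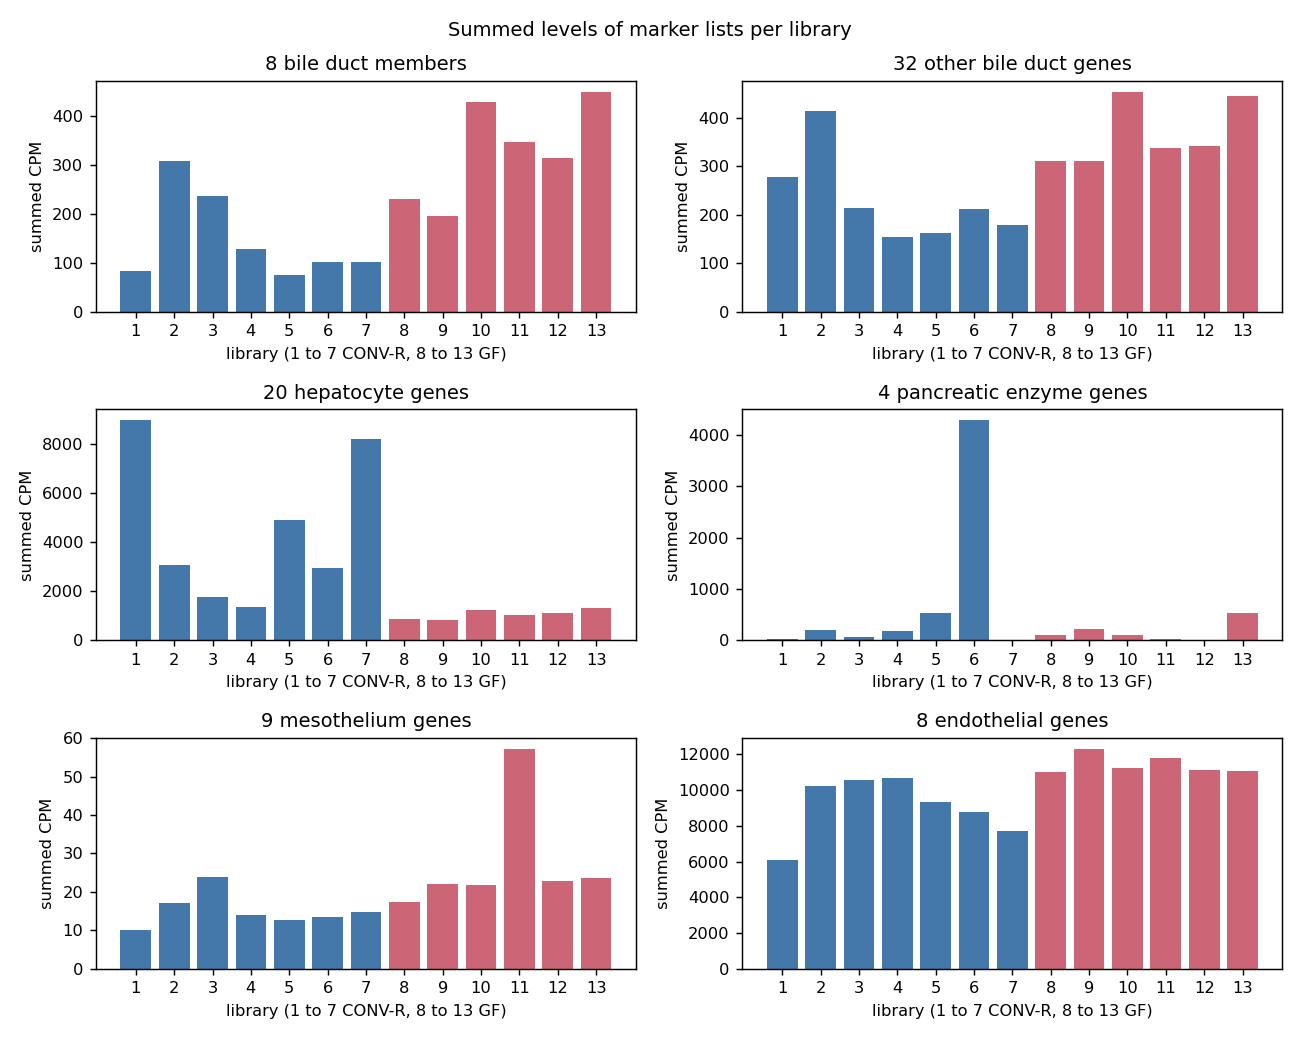
Summed TMM-scaled CPM (vertical axes, from 0) of 6 marker lists in each library, CONV-R 1 to 7 in blue and GF 8 to 13 in red. Member sums lie between 74.7 and 308 CPM for CONV-R, highest in library 2, and between 196 and 448 for GF, whereas hepatocyte sums are highest in CONV-R 1 and 7.

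The wider set of bile duct genes, 32 genes outside the members of which 31 were tested, was also mostly higher in GF. Of these, 9 rose, 1 fell and 21 did not pass, beside 11.4% of all tested genes called higher and 12.7% lower. A log2 fold change above 0 was found for 30 of 31, beside 48.5% of all tested genes. The list was chosen with earlier results of these data known, so these are not like comparisons. Its genes were measured in the same libraries and are not separate observations. The list's median was 0.94. Its summed level ran from 154 to 414 CPM across CONV-R and from 312 to 454 in GF, and CONV-R 2 was the highest CONV-R library for 22 of the 31 genes.

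Esrp1, an epithelial splicing regulator, had a log2 fold change of 1.46 ± 0.37 (adjusted p = 0.0131). It stood at 0.311, 0.5676 and 1.74 CPM (lowest, median, highest) across CONV-R and at 1.27, 1.91 and 2.53 in GF, with CONV-R 2 highest in its group. Cldn7, the claudin that binds Epcam, stood at 0.856, 1.34 and 6.09 CPM across CONV-R and at 3.96, 5.41 and 7.27 in GF (1.34 ± 0.38, adjusted p = 0.0231). The others that rose were the tetraspanin Tspan8 (1.34), the chloride channel Ano1 (1.26), the sodium pump subunit Atp1b1 (1.16), the progenitor marker Prom1 (1.04), the protease inhibitor Spint1 (1.0002), the transcription factor Onecut2 (0.98) and E-cadherin, Cdh1 (0.90). Calls of Prom1 and Spint1 were lost on leaving out any of 12 of the 13 libraries, of Ano1 any of 11 and of Cdh1 any of 9, with adjusted p up to 0.102. Those of Cldn7 (adjusted p = 0.0524) and Atp1b1 (adjusted p = 0.0506) were lost without GF 13.

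**Figure D4:**
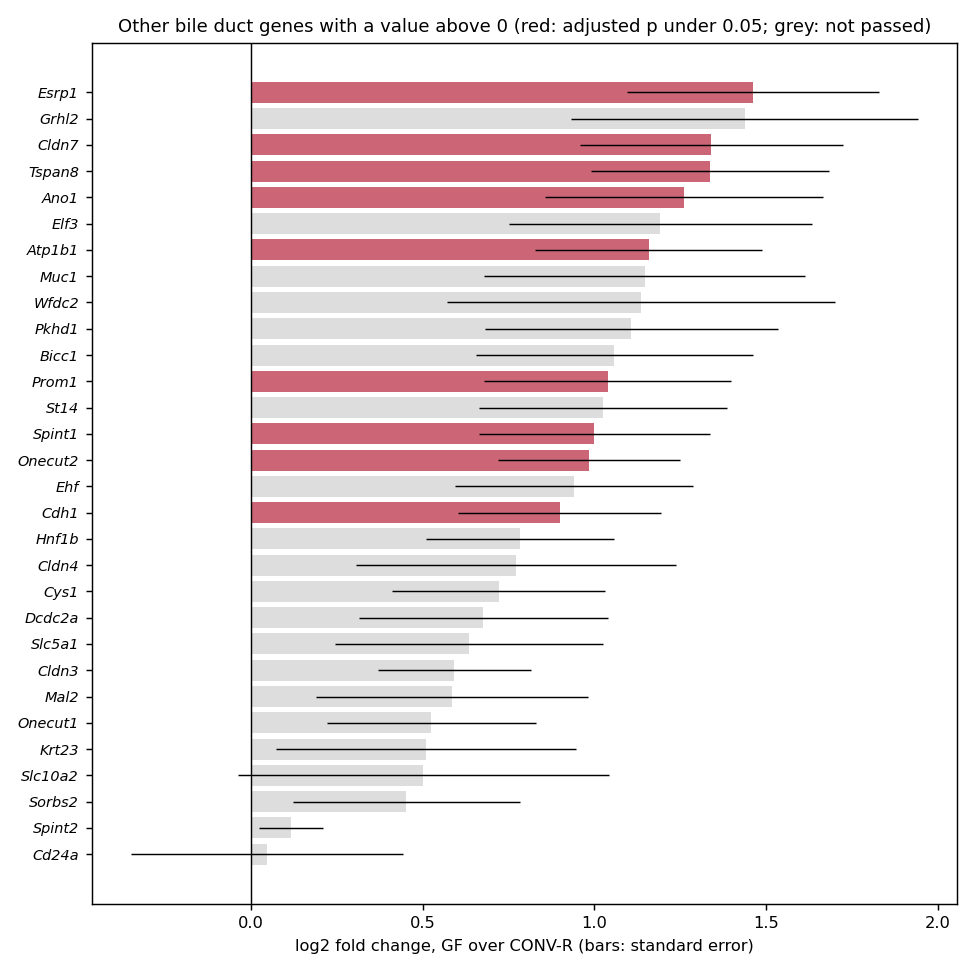
Log2 fold change, GF over CONV-R (horizontal axis, bars are standard errors), of the 30 tested bile duct genes outside the members with a value above 0, red where the adjusted p was under 0.05. The 9 red bars run from 0.90 for Cdh1 to 1.46 for Esrp1.

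Among genes that tie keratin filaments to junctions, 6 of 13 tested were higher and 0 lower, with a median of 0.30, beside 11.4% and 12.7% of all tested genes. The count was 1 without GF 10, 2 without CONV-R 1, GF 12 or GF 13, and 3 without CONV-R 3, CONV-R 7, GF 8 or GF 11. It was 1 against code number 10 alone and, in edgeR, 0 with the hepatocyte covariate (3 at an unadjusted p under 0.05). The cornified-envelope linkers Ppl (1.30 ± 0.34, adjusted p = 0.0148) and Evpl (1.03 ± 0.29, adjusted p = 0.0229) and the desmosomal linker Dsp (0.83 ± 0.25, adjusted p = 0.0294) rose most. Jup (mean 151 CPM, 0.48 ± 0.15, adjusted p = 0.0326) and Pkp4 (mean 61.1 CPM, 0.30 ± 0.10, adjusted p = 0.0454) were more abundant and rose less. The medians of the general and sinusoidal endothelial lists were 0.33 and 0.37. An endothelial part in these calls was not tested. Ppl stood at 1.06 to 7.21 CPM across CONV-R and 5.42 to 11.9 in GF. The call of Dsp was lost without any 1 of 5 libraries and that of Evpl without GF 10 (adjusted p = 0.0539) or GF 12 (adjusted p = 0.0506).

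Of the genes that work with Cftr in bicarbonate secretion, 5 of 12 tested were higher and 1 lower, with a median of 0.19, beside 11.4% and 12.7% of all tested genes. The count of higher genes was 2 without GF 8, 9 or 13, 3 without CONV-R 5, 6 or 7 or GF 10, 11 or 12, and 1 against code number 10 alone or with the hepatocyte covariate. The sodium bicarbonate cotransporter Slc4a4 rose: CONV-R libraries lay between 2.63 and 27.4 CPM and GF libraries between 28.5 and 49.0, with every GF library above every CONV-R library (1.73 ± 0.44, adjusted p = 0.0134). Its call was lost against code number 10 alone (1.67, adjusted p = 0.0738) and with the hepatocyte covariate (2.33, adjusted p = 0.131). Slc4a2, the chloride bicarbonate exchanger, also separated the groups without overlap, by a small step (0.23 ± 0.04, adjusted p = 0.00195). It stood at 66.2 to 73.4 CPM across CONV-R and 79.2 to 84.7 in GF. Adcy6, at a mean of 210 CPM, had a log2 fold change of 0.27 ± 0.09 (adjusted p = 0.0355). An endothelial part in the calls of Slc4a2 and Adcy6 was not tested. Ano1 is shared with the wider list, and the carbonic anhydrase gene Car2 had a log2 fold change of 0.47 ± 0.14 (adjusted p = 0.0291; lost without GF 8, 9 or 13, at adjusted p up to 0.0728). Sctr, the secretin receptor gene of cholangiocytes, was too rare to test, at a mean of 0.239 CPM.

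Among receptors for osteopontin 2 of 9 were called higher and 3 lower, beside 11.4% and 12.7% of all tested genes. Counts this small are given as a description only. The count of lower genes was 0 with limma-voom, without a filter, against code number 10 alone and with the hepatocyte covariate (1 to 3 at an unadjusted p under 0.05). The count of lower genes was 1 without CONV-R 1, 5 or 7 or GF 8, and in edgeR 0 without CONV-R 6 or GF 9 to 13 (3 or 4 at an unadjusted p under 0.05). The integrin subunit Itgb3, which endothelial cells and platelets carry, rose: CONV-R libraries lay between 44.3 and 104 CPM and GF libraries between 204 and 357 (log2 fold change 2.03 ± 0.21, adjusted p = 5.13e-05). Itga4 (-1.12 ± 0.34, adjusted p = 0.0296) and Cd44 (-0.88 ± 0.29, adjusted p = 0.0389) fell. Both are leukocyte genes as well, and without CONV-R 1, where Itga4 was at 183 CPM, Itga4 stood at -0.69. Leaving out any of 10 libraries ended the Cd44 call, and any of 6 ended that of Itga4.

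Members varied together only in part within a group. Over 28 pairs in CONV-R the median Pearson r of log2 CPM was 0.56, and over 28 pairs in GF 0.60, with 25 and 26 pairs above 0. Without the 2 libraries farthest from the median of the pair's first gene, many pairs in both groups turned negative. Krt7 and Krt19 in CONV-R went from 0.75 to -0.41, and Krt8 and Cftr in GF from 0.57 to -0.92. Others rose, such as Krt7 and Sox9 in CONV-R from 0.69 to 0.90. The share of positive pairs among other genes was not computed. Of the 56 relations tested, 1 passed after adjustment: Spp1 and Cftr in CONV-R (n = 7, r = 0.89, exact permutation p = 3.97e-04, adjusted p = 0.0222). Its Spearman rho was 0.96 (exact permutation p = 0.00278, adjusted p = 0.0778), and r was 0.83 without the 2 libraries farthest from the median of Spp1. In GF the same pair had r = 0.80 (n = 6, exact permutation p = 0.0639, adjusted p = 0.25).

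Krt8 and Krt18 had r = 0.93 in CONV-R (exact permutation p = 0.00317, adjusted p = 0.0888) and 0.68 without the 2 farthest libraries, so part of the relation rests on those. Sox9 and Spp1 had r = 0.93 in GF (exact permutation p = 0.00972, adjusted p = 0.181). The lowest value was that of Sox9 and Krt18 in CONV-R, at -0.12, which was 0.89 in GF (exact permutation p = 0.0222, adjusted p = 0.25). With 6 or 7 libraries a group, these values are coarse.

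**Figure D5:**
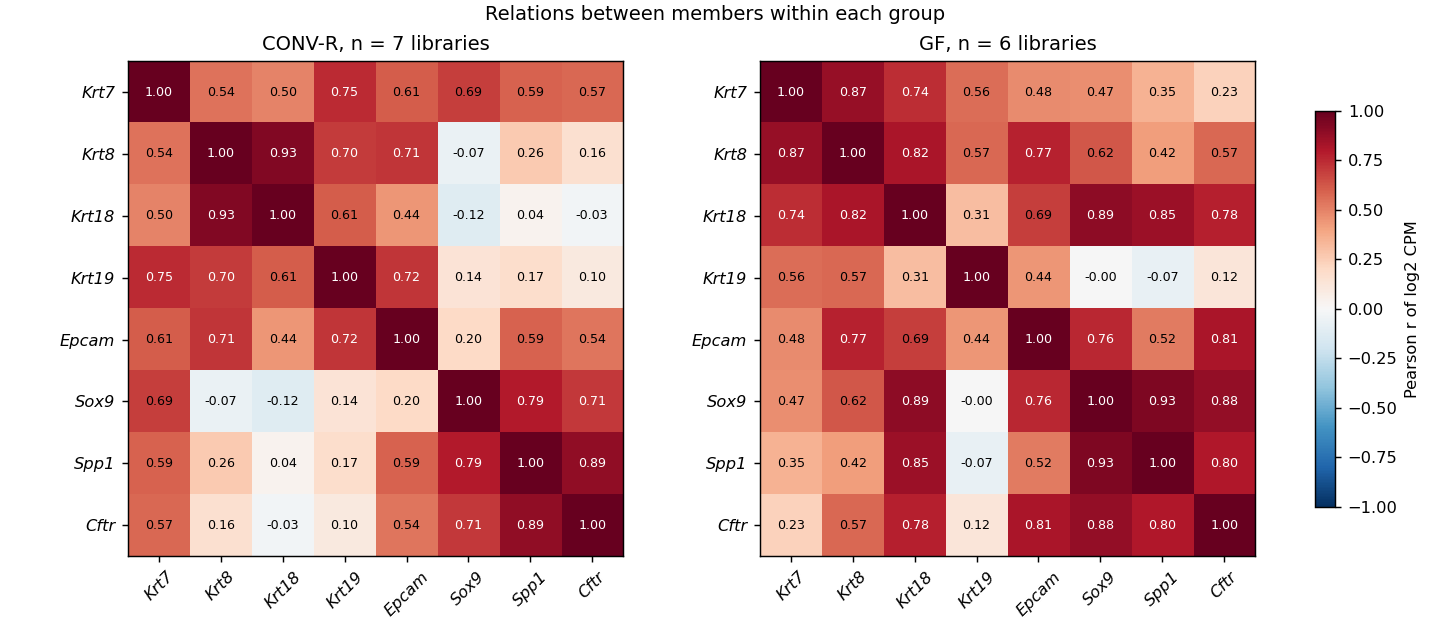
Pearson r of log2 CPM between each pair of members (colour and number) in the 7 CONV-R libraries on the left and the 6 GF libraries on the right. Spp1 and Cftr reach 0.89 in CONV-R, and Krt19 is near 0 with Sox9 and Spp1 in GF.

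The genes whose pattern came closest to each member were ranked by Pearson r over 13 libraries with the group means removed, among 13003 other genes, and are given as a description. Epcam was nearest to Cldn7 (r = 0.96), Sox9 to the cystic kidney disease genes Bicc1 (0.94) and Pkhd1 (0.94), and Krt18 to the tight junction gene Cldn3 (0.95), all from the wider bile duct list. Krt19 was nearest to Smpd3 (0.98) and to the mucin gene Muc1 (0.98). For Krt8 the nearest gene was Krt18 (0.90), for Krt7 Syngr1 (0.92), for Spp1 Scara3 (0.96) and for Cftr the fibroblast growth factor receptor gene Fgfr2 (0.90), with the wider-list gene Dcdc2a (0.89) next.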

How the data were processed

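The data are raw gene-level counts that the authors deposited as a single table of symbols by libraries. Stranded poly(A) libraries were read on a NovaSeq instrument, per the labels' protocols, and FastQC 0.11.9, STAR 2.7.5a, featureCounts 2.0.1 and DESeq2 1.42.1 with build mm10 are named, per the submitters' processing notes. The annotation, the strand setting and the handling of multi-mapping reads: each is not given in the sources used here, so reads shared with near-identical copies of a keratin gene are uncertain. Libraries were grouped by their titles. The 13915 genes kept by filterByExpr (minimum count 10, minimum total 15) were scaled by TMM and tested with edgeR 4.0.16 (robust quasi-likelihood, group only, all 13 libraries, R 4.3.3), with Benjamini-Hochberg adjustment over all of them. Standard errors come from the fold change and F (absolute log2 value over root F). The biological coefficient of variation was 0.264, and every pair of libraries in a group differed by more than counting error (chi-square over its degrees of freedom at least 13.4).

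All members are described. Other named genes are, in each list, up to 3 past the threshold with the largest change and a mean of at least 1 CPM. Where none passed, the most abundant gene was taken, and the 3 genes most like each member were added. Further wider-list genes past the threshold, Slc4a2, Adcy6, Jup, Pkp4, Trem2, Gpnmb and Msln were chosen after their values were seen. Of the named genes only those that bear on the members are described. Members and lists were chosen with earlier results of these data known. Correlations used log2 CPM with a prior count of 2. Transcript lengths came from GENCODE M21. Alternatives were DESeq2 1.42.0, limma 3.58.1 (voom), other scalings, filters and thresholds, subsets of CONV-R, a hepatocyte covariate and leaving out each library. The gene of the wider list that was called lower is counted but not reported here.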

Additional observations from a re-analysis of the deposited data

Results flagged for a closer look

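In 50 groups examined (members, their sums and the named genes of the related lists, each in CONV-R and in GF), 11 held a library whose gap to its nearest neighbour was unusually wide for the group's range. About 1 in 20 groups would be picked by chance. Of the 11, 8 were CONV-R 2 as the highest CONV-R library: the members Krt8 (32.4 CPM, next 18.7), Krt19 (35.8, next 16.1) and Epcam (11.0, next 5.48), the sum of the members without Spp1 (115 CPM, next 53.5), and the related genes Ano1 (10.5), Cldn7 (6.09), Esrp1 (1.74) and Ppl (7.21, next 2.88). CONV-R 1 stood apart for Itga4 (183 CPM, next 75.5) and for the keratin gene Krt80 (10.1, next 5.21), and GF 8 for Itga4 (44.6, next 31.9).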

How the results depend on the processing

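All 200 values of the members under 25 alternatives had a log2 fold change above 0, and 0 of the 5 calls was lost on leaving out any 1 of the 13 libraries. These alternatives share most of their libraries, and the threshold of 0.01 leaves the values of the main fit unchanged. The 200 values are therefore not separate checks. Members past the threshold numbered 5 to 7 on leaving out 1 library, 1 at a threshold of 0.01, 1 against code number 10 alone and 0 with the hepatocyte covariate. Over all tested genes, 629 of 13915 were called higher at a threshold of 0.01. The share was 6.89% against code number 10 alone and 1.96% with the hepatocyte covariate. On leaving out 1 library, between 1013 of 14158 genes (without GF 9) and 1765 of 13842 (without CONV-R 3) were called higher. Higher genes of the wider list numbered 3 to 19 on leaving out 1 library, highest without CONV-R 2 and lowest without GF 13. They numbered 18 with DESeq2, 16 with limma-voom, 5 without a filter and 0 in edgeR at a threshold of 0.01 (19 at an unadjusted p under 0.05). Against code number 10 they numbered 0 (8 at an unadjusted p under 0.05, and 13 adjusted without CONV-R 2). There were 21 against code number 9 and 2 with the hepatocyte covariate. Over all tested genes, 1913 of 15609 were called higher with DESeq2, 1913 of 13915 with limma-voom and 1424 of 18974 without a filter. The share was 5.45% against code number 10 without CONV-R 2 and 16.2% against code number 9. The list's single lower gene gave 1 on leaving out any library, and 0 with the stricter filter (at least 1 CPM in 6 libraries), the hepatocyte covariate, or code number 10 without CONV-R 2, an alternative chosen after seeing the data, as was leaving out CONV-R 1 and 7. Cd44 turned to 0.17 with the hepatocyte covariate. The cause was not tested. Library totals in place of TMM moved the median of all genes from -0.01 to -0.11 and their split from 1593 higher and 1764 lower to 971 and 2773; the members had 5 higher under both. No paired analysis was possible because the groups share no replicate number.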

Other observations

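Keratin genes outside the members were mostly too rare to test: of 48 others, 4 passed the filter on low counts, 0 of them higher (also at an unadjusted p under 0.05) and 2 lower in GF by edgeR, beside 3 higher and 4 lower of 12 by DESeq2. Krt80, an epithelial keratin gene, ran between 2.42 and 10.1 CPM across CONV-R and between 1.02 and 1.97 across GF, with every GF library below every CONV-R library (log2 fold change -1.54 ± 0.33, adjusted p = 0.00609; adjusted p = 0.473 with the hepatocyte covariate). Krt222 changed by -0.88 ± 0.22 (adjusted p = 0.0122).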
